A study of Mus musculus with 4 samples.

Results

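Dorsal horn neuropeptide genes were followed in RNA of the lumbar spinal cord. The 10 genes, Tac1, Penk, Pdyn, Sst, Npy, Nts, Grp, Adcyap1, Crh and Cck, were chosen by name from the 18674 gene names of the deposited table, and each had 1 row. Each of 4 conditions was represented by 1 library: wild type mice given vehicle (WT vehicle), wild type mice given spermidine (WT + SD), G93A mice given vehicle (G93A vehicle) and G93A mice given spermidine (G93A + SD). G93A mice carry a mutant human SOD1 transgene (the high-expresser H1 line on a B6/SJLF1 background) and are a model of amyotrophic lateral sclerosis (ALS), in which motor neurons are lost. Spermidine (SD) is a natural polyamine. At death the mice were 100 days old and had received SD or PBS for 30 days, with 4 injections per week. The dosing section of the methods, which is not specific to the sequenced mice, gives 5 mg/kg by intraperitoneal route and names saline in place of PBS. How many animals were behind each library is not given in the sources used here. The transgene acts in many cell types, and a piece of whole lumbar cord was sampled, not the dorsal horn alone. With 1 library per condition, no comparison of one condition with another has a replicate, and no p-value is given. Each genotype has 2 libraries that differ in treatment, and these are set beside each other below. An exact permutation test of 2 libraries against 2 cannot go below a two-sided p of 0.333, and a model of genotype and SD across all names was not run.

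Neuropeptides are made as larger precursors that are cut in the secretory pathway, stored in dense core vesicles and released to act on G protein-coupled receptors, usually more slowly and over a wider area than glutamate, GABA or glycine. In the dorsal horn of the spinal cord they mark sets of interneurons that receive pain, itch and touch input. Tac1, Nts, Grp and Cck mark largely excitatory cells, Npy marks inhibitory cells, Penk and Pdyn encode opioid precursors found in both kinds, and Sst is used widely as a marker of excitatory dorsal horn cells. Several of these genes are classical targets of cAMP signalling, in which the factor CREB binds the cAMP response element (CRE).

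The stretches in which that element was looked for are shown first, since the CRE was described in the Sst promoter. RefSeq promoter windows of GRCm38.p6, from 250 bases before to 50 bases after a RefSeq start site, were found for 7 of the 10 genes, and none was used for Penk, Crh or Grp. The full element TGACGTCA, which reads the same on both strands, was present in 1 of the 7 genes, Sst, where it began 48 bases before the RefSeq start, against 1.79% of all 32851 windows. The shorter letters TGACG, read on either strand and contained in the full element, were present in 5 of the 7 genes (Tac1, Cck, Nts, Sst and Adcyap1), against 20.8% of all windows. Pdyn and Npy held neither. The 7 genes have 9 windows, with more than 1 for Pdyn and Adcyap1, so these shares of genes and of windows are not directly comparable. The site nearest the RefSeq start is printed for these 5 genes as 30 bases, 5′ to 3′ on the strand of the gene, with the matched letters in capitals (CGTCA is TGACG on the other strand). They lie at chr16:23890875-23890904 for Sst, chr6:7555006-7555035 for Tac1, chr9:121495724-121495753 for Cck, chr10:102490567-102490596 for Nts and chr17:93198914-93198943 for Adcyap1. Sst, Cck and Nts are on the minus strand, and Tac1 and Adcyap1 on the plus strand. The GENCODE gene spans given below begin farther upstream than the RefSeq starts for Sst, Tac1 and Nts, and the printed sites of Sst and Tac1 lie inside those spans.
Sst: cgcctccttggcTGACGTCAgagagagagt
Tac1: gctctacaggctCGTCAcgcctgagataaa
Cck: cctgctggactgCGTCAgcactgggtaaac
Nts: attagggaagatCGTCActttccatcaagg
Adcyap1: ggactaggatgcTGACGtcttttactgata

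Cck and Adcyap1 are the genes with a promoter window that passed 1.5-fold in a genotype comparison below, one lower and one higher. The 120 bases before their start sites are therefore shown in full, at chr9:121495695-121495814 on the minus strand for Cck and at chr17:93198897-93199016 on the plus strand for Adcyap1. The matched letters began 47 bases before the start in Cck and 91 bases before the first of 2 annotated starts in Adcyap1. Over all windows, 11.7% held TGACG on either strand within these 120 bases. A match of letters is a description and not a shown binding site.
Cck: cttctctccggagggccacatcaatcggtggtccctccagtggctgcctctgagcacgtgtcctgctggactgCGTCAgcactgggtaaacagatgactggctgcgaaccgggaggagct
Adcyap1: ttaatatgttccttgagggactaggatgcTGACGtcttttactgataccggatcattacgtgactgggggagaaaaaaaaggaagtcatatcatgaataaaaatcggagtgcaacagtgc

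The values are RPKM (reads divided by transcript length in kilobases and by library depth), a unit inferred from the numbers, so that levels of different genes can be set side by side per length. The sum of RPKM was between 376852 and 393328 per library, and the depth was estimated at 36800000 to 38600000 read pairs. From this depth, between 285 and 5383 read pairs per library were estimated behind each gene other than Crh, and 22.5 to 107 behind Crh. Of the windows of 53 bases, the read length, in the transcripts of the 10 genes, 0 occurred in a transcript of another gene. Lumbar cord neurons were present in all libraries, with Snap25 between 661 and 1292 RPKM and Slc17a6, the vesicular glutamate transporter of dorsal horn and other excitatory neurons, between 32.2 and 60.1 RPKM. Sensory ganglion genes, which would mark attached dorsal root ganglia, were near 0: the 7 genes found summed to 0.917 RPKM in WT vehicle and 0.965 in WT + SD, against 1.15 in G93A vehicle and 1.56 in G93A + SD. Scn10a was listed at 0 in both WT libraries, and Trpv1 and Prdm12 in WT vehicle. A gene was called higher or lower from a difference of 1.5-fold upward. Neither a pseudocount nor a filter on low levels was applied to calls.

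The enkephalin precursor Penk and the somatostatin precursor Sst were the most abundant of the set. Penk had 100.9 RPKM in WT vehicle and 94.6 in WT + SD, against 79.4 in G93A vehicle and 90.3 in G93A + SD. Sst, whose product is an inhibitory peptide, had 88.4, 84.0, 71.8 and 73.1 RPKM in the same order of libraries. For both genes each G93A library lay below each WT library, and neither reached 1.5-fold in any comparison. Together they made up 66.3% and 67.0% of the summed level of the 10 genes in the WT vehicle and WT + SD libraries, and 62.3% and 61.5% in their G93A counterparts. Pdyn, the precursor of the dynorphins, was much less abundant, with 6.48 RPKM in WT vehicle and 5.47 in WT + SD, against 5.33 in G93A vehicle and 5.61 in G93A + SD. Its WT vehicle value stood above the other 3, which lay close together, so the genotypes overlapped. On GRCm38 Penk lies on the minus strand of chromosome 4 from 4133531 to 4138819, Sst on the minus strand of chromosome 16 from 23889573 to 23890958 and Pdyn on the minus strand of chromosome 2 from 129686565 to 129699844. Of the 1449 bases of the Penk transcript, 157 lie in exons of A830012C17Rik on the opposite strand. Counting is not stated to use strand, so reads within those bases cannot be assigned to either gene.

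**Figure D1:**
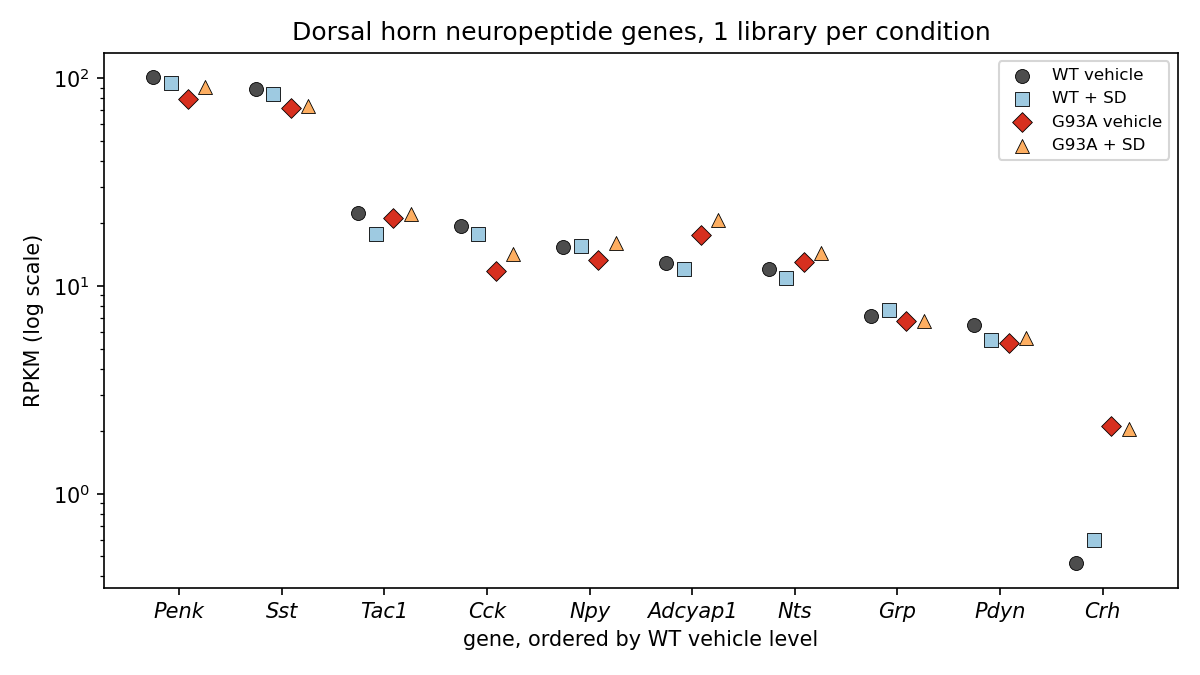
Level of each of the 10 genes in RPKM on a log axis, with 1 point per library and no error bar since each condition has 1 library. Crh is lowest in every library and is the gene whose G93A points (2.12 and 2.04 RPKM) stand farthest from its WT points (0.463 and 0.597 RPKM), while Penk and Sst are highest throughout.

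Tac1, Cck and Nts, peptides of largely excitatory dorsal horn cells, followed different courses. Tac1, which encodes substance P and neurokinin A, had 22.4 RPKM in WT vehicle and 17.9 in WT + SD, against 21.3 in G93A vehicle and 22.1 in G93A + SD. The WT + SD library was the low one, and the other 3 lay close together. Cck, the precursor of cholecystokinin, had 19.4, 17.8, 11.9 and 14.2 RPKM in that order. Both G93A libraries lay below both WT libraries, with G93A vehicle lowest. Nts, which encodes neurotensin and neuromedin N, had 12.1, 10.9, 13.0 and 14.4 RPKM, so that both G93A libraries lay slightly above both WT libraries. Grp, the gastrin-releasing peptide of itch circuits, was the steadiest gene, with 7.13, 7.65, 6.76 and 6.79 RPKM and a highest value 1.13 times the lowest. On GRCm38 Tac1 lies on the plus strand of chromosome 6 from 7554879 to 7565834, Cck on the minus strand of chromosome 9 from 121489824 to 121495694 and Nts on the minus strand of chromosome 10 from 102481756 to 102490486. Grp lies on the plus strand of chromosome 18 from 65872820 to 65886596 and overlaps the span of the antisense gene AC152076.4, with 0 exon bases in common.

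Npy, Adcyap1 and Crh complete the set. Npy, which encodes neuropeptide Y of inhibitory interneurons, had 15.5 RPKM in WT vehicle and 15.6 in WT + SD, against 13.3 in G93A vehicle and 16.2 in G93A + SD. Its lowest and highest values were both in G93A libraries, so the genotypes overlapped. Adcyap1, which encodes the peptide PACAP and is known to be induced in injured neurons, had 12.9, 12.1, 17.6 and 20.8 RPKM. Both G93A libraries were above both WT libraries, and the WT values differed from each other by less than 1 RPKM. Crh, which encodes corticotropin-releasing hormone, had 0.463, 0.597, 2.12 and 2.04 RPKM. The G93A libraries lay close together and both were more than 3 times either WT library. The Crh values rest on few reads, with an estimated 22.5 and 30.2 read pairs in the WT libraries (vehicle, then SD) and 107 and 104 in the G93A libraries. On GRCm38 Npy lies on the plus strand of chromosome 6 from 49822710 to 49829507, Adcyap1 on the plus strand of chromosome 17 from 93199017 to 93206537 and Crh on the minus strand of chromosome 3 from 19693401 to 19695396.

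The order of levels per length differed between genotypes and was the same in both libraries of a genotype. In WT vehicle and WT + SD it was Penk, Sst, Tac1, Cck, Npy, Adcyap1, Nts, Grp, Pdyn and Crh from highest to lowest. In G93A vehicle and G93A + SD, Adcyap1 stood 4th in place of 6th, Cck 7th in place of 4th, and Nts 6th in place of 7th. The other 7 genes kept their places. Neighbours in the middle of the order were near each other, for example Tac1 and Cck at 17.9 and 17.8 RPKM in WT + SD, and with 1 library each such pairs cannot be ranked beyond these libraries.

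The first comparison asked how the genes differ with genotype under vehicle. In G93A vehicle, 1 of the 10 genes was called higher than in WT vehicle and 1 lower, while 20.3% of all names were called higher and 10.3% lower. Crh was 4.59-fold higher (log2 fold change 2.20) and Cck was 1.64-fold lower (-0.71). With a pseudocount of 1 RPKM the log2 fold change of Crh was 1.09. Adcyap1 was 1.37-fold higher and Penk 1.27-fold lower, both below the threshold. Among the rest, the log2 fold changes lay between -0.30 for Sst and 0.11 for Nts. In all, 3 genes were higher and 7 lower by any amount, while 10293 of the 18674 names were higher and 7944 lower, and the median log2 fold change was -0.15, against 0.046 over all names (medians are on the log2 scale after adding 0.1 RPKM). The background over all names also holds names of low level. Among the 12987 names with a mean of at least 1 RPKM, which hold all 10 genes, 13.5% were called higher and 4.68% lower. Crh reaches that mean only through its G93A libraries, since its WT values were 0.463 and 0.597 RPKM.

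The second comparison asked the same between the libraries given SD. In G93A + SD, 2 of the 10 genes were called higher than in WT + SD and 0 lower, against 23.2% and 12.5% of all names and 16.3% and 8.12% of those with that mean. Crh was 3.42-fold higher (1.78) and Adcyap1 1.72-fold higher (0.78). With a pseudocount of 1 RPKM the value for Crh was 0.93. Nts was 1.32-fold higher and Tac1 1.24-fold higher, and Cck was 1.25-fold lower and Sst 1.15-fold lower, all below the threshold. Cck was thus called under vehicle alone and Adcyap1 under SD alone, and whether the genotype difference itself differs with SD was not tested. The median log2 fold change was 0.042, against 0.050 over all names, and median-ratio scaling, which moves every value of this comparison by -0.066, turned Pdyn and Npy from just above 0 to just below it. Both genotype comparisons use separate libraries. Each G93A library was above each WT library for 3 genes (Nts, Adcyap1 and Crh) and below each for 4 (Penk, Sst, Grp and Cck), against 39.7% and 28.0% of all names, so that such a separation is common in these libraries.

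The last comparisons asked how the genes differ with SD within a genotype. In WT + SD against WT vehicle 0 of the 10 genes were called in either direction, while 7.18% of all names were called higher and 8.55% lower. Among names with a mean of at least 1 RPKM these shares were 0.909% and 1.36%, so that few expressed names were called at all. The largest differences were those of Crh, 1.29-fold higher, and Tac1, 1.26-fold lower. In G93A + SD against G93A vehicle 0 of 10 were called as well, while 8.71% of all names were called higher and 7.31% lower, or 1.34% and 1.04% of names with that mean. Npy was 1.22-fold higher, Cck 1.20-fold higher, Adcyap1 1.18-fold higher and Penk 1.14-fold higher. In G93A mice 9 of the 10 genes were higher with SD by any amount, with Crh the exception (1.04-fold lower), while 9589 of the 18674 names were higher and 8711 lower, and the median log2 fold change was 0.11, against 0.0068 over all names. Median-ratio scaling turned Grp from 0.0062 to -0.0062, which leaves 8. In WT mice 3 were higher and 7 lower (9546 and 8566 of all names), with a median of -0.089, against 0.0044 over all names. These comparisons share their libraries with the genotype comparisons, and the G93A vehicle library held the lowest value of 6 genes (Penk, Pdyn, Sst, Npy, Grp and Cck).

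**Figure D2:**
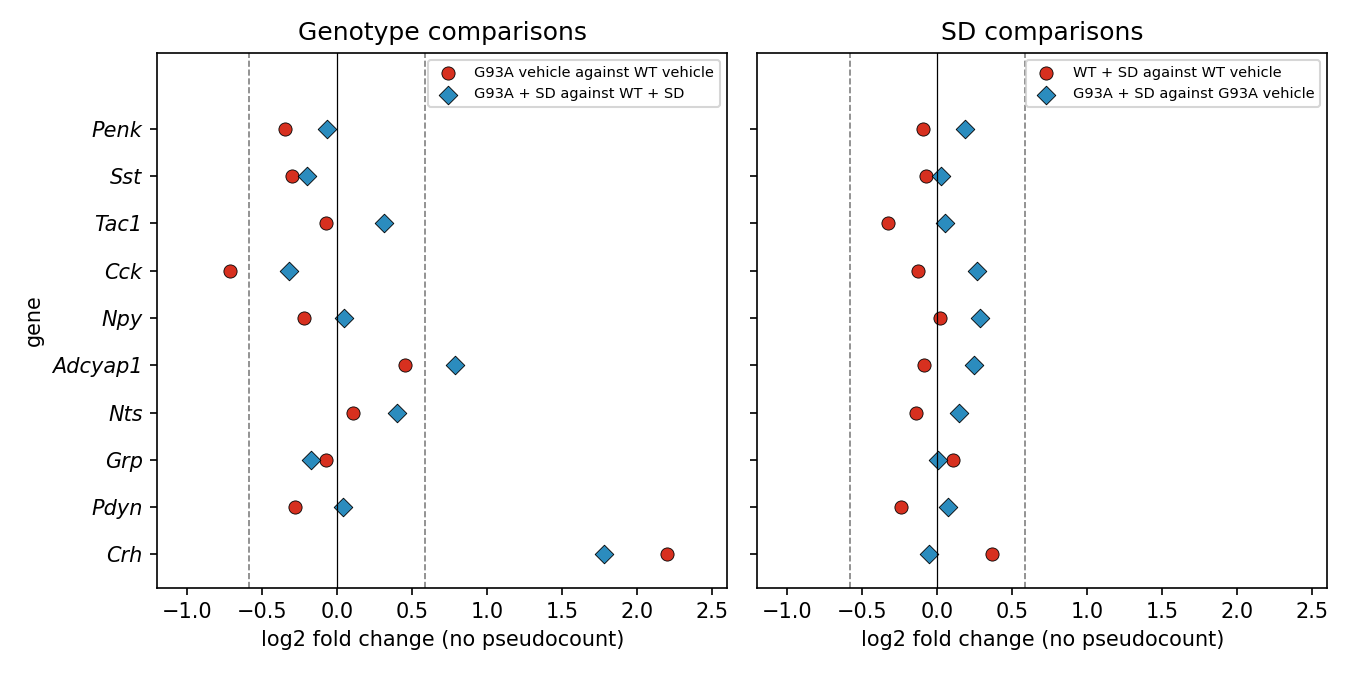
Log2 fold change of each gene without a pseudocount in the genotype comparisons (left) and the SD comparisons (right), with 1 point per comparison and dashed lines at 1.5-fold. Crh (2.20 and 1.78), Adcyap1 under SD (0.78) and Cck under vehicle (-0.71) lie outside the lines, and every SD comparison lies within them.

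General neuronal genes were lower in the G93A libraries beside these values. The 8 genes of that list (Rbfox3, Snap25, Syt1, Map2, Stmn2, Eno2, Syn1 and Nefl) summed to 2906 RPKM in WT vehicle and 2880 in WT + SD, against 1809 in G93A vehicle and 1479 in G93A + SD. Between genotypes their median log2 fold change was -0.49 under vehicle and -0.67 under SD, with 8 of 8 lower in both. In the first comparison 9 of the 10 neuropeptide genes stood above that median, all but Cck, and in the second all 10 did. Of all names 92.1% and 94.1% stood above it, so these counts are near the background. RPKM is relative to library depth, so these values are shares of the sequenced RNA and not amounts per cord. In bulk tissue, fewer cells of a type and less RNA per cell cannot be told apart either. Microglial genes moved the other way, with 7 of 8 called higher in both genotype comparisons and a sum of 70.8 RPKM in WT vehicle and 65.0 in WT + SD, against 417 in G93A vehicle and 423 in G93A + SD. Astrocyte genes, 5 of 6 called higher in both, summed to 897, 831, 3270 and 4020 RPKM. Over all names 20.3% and 23.2% were called higher under vehicle and under SD. The part of microglia and astrocytes in the neuropeptide values was not tested.

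Of the markers of dorsal horn neurons themselves, inhibitory ones were mostly lower in both genotype comparisons, and excitatory ones mostly under vehicle alone. For the counts of calls below, 10.3% of all names were called lower under vehicle and 12.5% under SD, and 20.3% and 23.2% higher. Of 10 genes listed for excitatory neurons, 3 were called lower in G93A vehicle (Slc17a6, Calb2 and Lbx1, the last of which marks a lineage of both excitatory and inhibitory neurons) and 0 higher, and 2 were called lower in G93A + SD (Slc17a6 and Calb2), each against the WT library of the same treatment. The median log2 fold change of the list was -0.33 under vehicle and 0.072 under SD. Of 10 inhibitory markers, 2 were called lower under vehicle (Slc6a5 and Pax2) and 3 under SD (Slc32a1, Slc6a5 and Pvalb), where Rorb was called higher, with medians of -0.47 and -0.46. Slc6a5, the glycine transporter of inhibitory neurons, had 45.9 RPKM in WT vehicle and 50.4 in WT + SD, against 21.5 in G93A vehicle and 17.5 in G93A + SD. Of 8 motor neuron markers, 5 were called lower under vehicle and 6 under SD, with sums of 100.8, 89.4, 68.3 and 48.6 RPKM in the same order of libraries. Of 6 genes of neurons that contact the cerebrospinal fluid, 2 were called lower under vehicle and 3 under SD, with sums between 11.2 and 14.9 RPKM.

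Among receptor genes for these peptides, Oprd1, Oprk1 and Vipr2 were called lower in both genotype comparisons. Of 22 receptor genes, 7 were called lower and 1 higher in G93A vehicle, and 9 lower and 1 higher in G93A + SD, each against its WT library. Over all names 10.3% and 12.5% were called lower. With a mean of at least 1 RPKM, 4 and 5 of the lower calls on receptors were left, and 4.68% and 8.12% of such names were called lower. The median log2 fold change was -0.40 in both. The opioid receptor genes come first, since Penk and Pdyn encode their ligands. Oprd1, the delta receptor that binds enkephalins, had 2.52 RPKM in WT vehicle and 2.64 in WT + SD, against 1.16 in G93A vehicle and 0.816 in G93A + SD. Oprk1, the kappa receptor that binds dynorphins, had 2.30, 2.61, 1.01 and 1.55 RPKM. Both were called lower in each genotype comparison. Within G93A mice Oprk1 was also 1.53-fold higher with SD, a call lost with a pseudocount of 0.1 RPKM. Oprm1, the mu receptor, had a mean under 1 RPKM and is named after its values were seen, with 1.22, 1.34, 0.587 and 0.517 RPKM. Sstr4 and Grpr, also with a mean under 1 RPKM, were called lower in both genotype comparisons as well.

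Receptors for the other peptides were less even. Tacr1, the substance P receptor of dorsal horn projection neurons, had 4.17 RPKM in WT vehicle and 4.64 in WT + SD, against 3.04 in G93A vehicle and 2.67 in G93A + SD. It was called lower under SD (1.74-fold) and not under vehicle (1.37-fold). Npy5r was likewise called lower under SD (1.76-fold), Sstr3 under vehicle (1.65-fold), and Vipr2, a receptor shared by PACAP and VIP, under vehicle (1.58-fold) and SD (2.77-fold). Npy5r had 1.99, 2.78, 1.39 and 1.57 RPKM and Sstr3 had 1.90, 1.55, 1.15 and 1.18 RPKM, each in the same order of libraries. Vipr2 reached 1.71 RPKM in WT + SD and 0.617 RPKM in G93A + SD. Within G93A mice Vipr2 was also 1.54-fold lower with SD, a call lost with a pseudocount of 0.1 RPKM. In that comparison 8.71% of all names were called higher and 7.31% lower. The most abundant receptors, Ntsr2 and Adcyap1r1, are expressed widely in astrocytes and neurons and were not called. Ntsr2 had 66.3, 62.0, 74.3 and 73.1 RPKM, and Adcyap1r1, the PACAP receptor, had 43.9, 42.7, 48.8 and 48.2 RPKM. Cckbr, the main brain receptor for cholecystokinin, had 5.13, 4.96, 3.96 and 3.77 RPKM and was not called. The only receptors called higher in a genotype comparison were Sstr5 and Crhr2, both below 0.3 RPKM in every library. The receptors called had levels under 5 RPKM in every library, and with a pseudocount of 1 RPKM the lower calls were 2 and 4 in place of 7 and 9.

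Genes for peptide processing and storage went both ways. Of 11 genes, 1 was called higher and 1 lower in G93A vehicle, and 2 higher and 3 lower in G93A + SD. Each was set against its WT library, and the medians of the list were -0.34 and -0.37. Over all names 20.3% and 23.2% were called higher, and 10.3% and 12.5% lower. Among names with a mean of at least 1 RPKM, 13.5% and 16.3% were called higher, and 4.68% and 8.12% lower. Scg3, a secretogranin of dense core vesicles, had 122 RPKM in WT vehicle and 133 in WT + SD, against 232 in G93A vehicle and 265 in G93A + SD and was called higher in both. Cpe, the carboxypeptidase that trims cut peptides, had 501, 465, 704 and 818 RPKM and was called higher under SD (1.76-fold). Chga, chromogranin A, had 102, 99.3, 64.4 and 55.2 RPKM and was called lower in both. Pcsk2, a convertase that cuts precursors, had 32.2, 32.7, 21.6 and 21.7 RPKM, a difference of 1.49-fold under vehicle and 1.51-fold under SD on either side of the threshold. Scg5, the chaperone of that convertase, had 281, 292, 222 and 86.9 RPKM, and within G93A mice its value with SD stood 2.56-fold below that with vehicle. It was the 1 processing gene called in an SD comparison. Median-ratio scaling raised the lower calls under vehicle from 1 to 4.

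Of 15 other neuropeptide genes, 1 was called higher in G93A vehicle and 0 lower, and 3 higher and 1 lower in G93A + SD. Over all names 20.3% and 23.2% were called higher, and 10.3% and 12.5% lower. The medians of the list were -0.016 and 0.18. Nmb and Adm were called higher under SD, close to the threshold at 1.52-fold each, and the higher calls of the list were 1 in place of 3 with median-ratio scaling or a pseudocount of 0.1 RPKM. Nmb, neuromedin B, had 1.87 RPKM in WT vehicle and 1.61 in WT + SD, against 1.75 in G93A vehicle and 2.44 in G93A + SD, and Adm, adrenomedullin, had 1.25, 1.62, 1.69 and 2.47 RPKM. The other calls, Ucn and Nppb, were of genes below 0.3 RPKM in every library. The most abundant were Tac2, Calca and Cartpt. Tac2, the neurokinin B precursor, had 33.3, 27.5, 24.8 and 31.1 RPKM, and Cartpt had 11.1, 12.3, 8.82 and 8.83 RPKM. Calca, which encodes CGRP in sensory and motor neurons, had 17.5, 20.6, 25.4 and 24.4 RPKM as the mean of 2 transcript rows. One Calca row had 24.3, 29.0, 36.3 and 35.6 RPKM, and the other had 10.7, 12.2, 14.5 and 13.3 RPKM. Under vehicle the mean of the Calca rows was 1.45-fold higher in G93A mice, below the threshold.

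**Figure D3:**
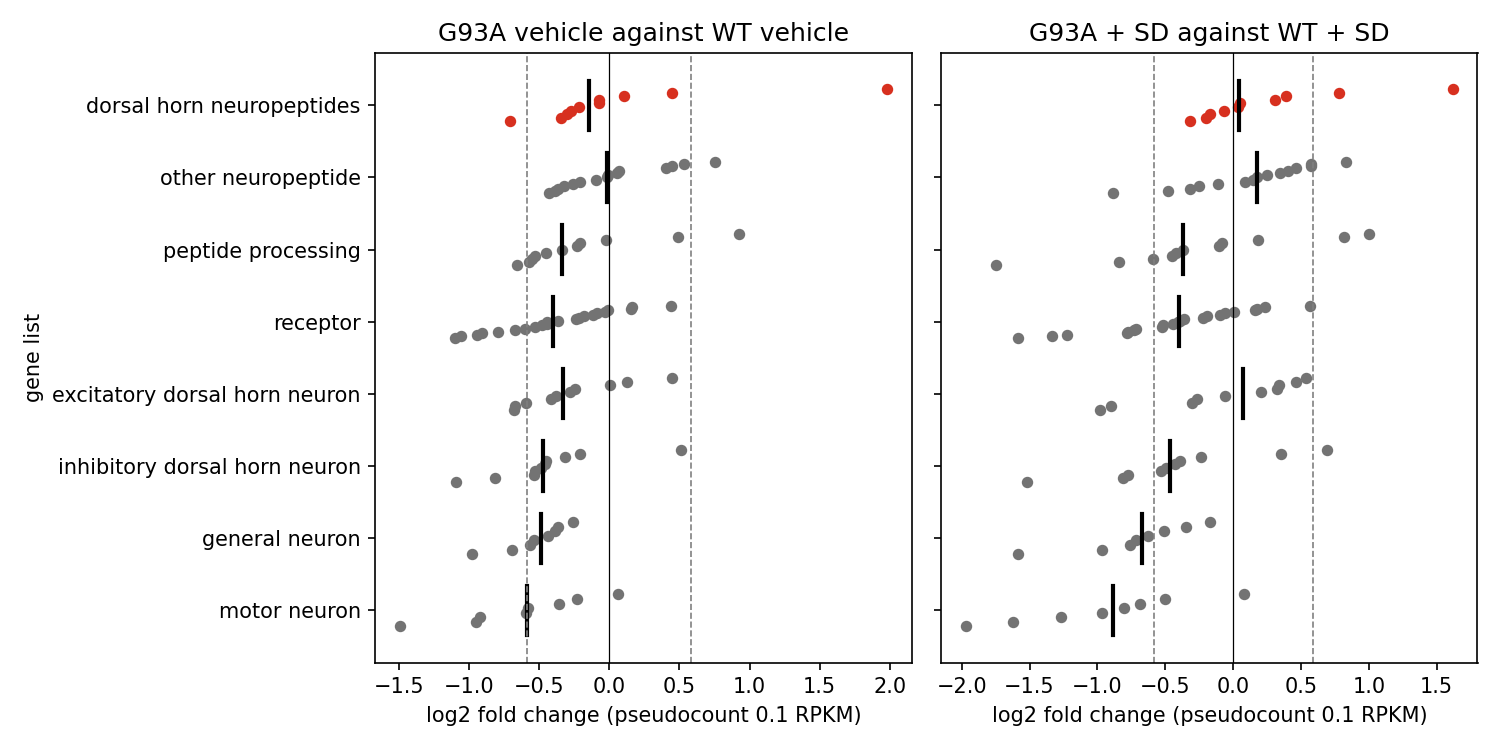
Log2 fold change, after adding 0.1 RPKM, for every gene of 8 lists in both genotype comparisons, with 1 point per gene, a thick bar at the list's median and dashed lines at 1.5-fold. The neuropeptide genes have medians of -0.15 and 0.042, against -0.49 and -0.67 for general neuronal genes and -0.40 in both for the receptors.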

How the data were processed

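RNA of the lumbar spinal cord was measured in 4 libraries, 1 per condition. The authors deposited values without a named unit, taken here as RPKM because their products with transcript length gave like totals in the 4 libraries. Their methods name polyA selection, 53 bp reads, STAR alignment to GRCm38 (mm10, as in the submitters' processing notes) and HTSeq counts on an Ensembl gene set, but the table lists RefSeq transcripts, and the step to RPKM is not given in the sources used here. The authors' ratio columns between libraries were not used. All per-sample columns were.

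Rows of a name were averaged (every member has 1 row) and compared as folds, called at 1.5-fold. A name at 0 in 1 library alone counted as called. List medians use log2 values with a pseudocount of 0.1 RPKM. Members and lists were chosen with earlier results of these data known. All members were named. Of the receptor, processing and other neuropeptide lists, genes averaging 1 RPKM or more that were called in a genotype comparison and the 3 most abundant were named, and exceptions are marked. Lists were matched by symbol or RefSeq accession (4 genes), and 1 gene, Mrgprd, had no match. The Schwann cell list (sum between 1.65 and 4.04 RPKM) and the oligodendrocyte list (sum between 2997 and 4405 RPKM) were also measured.

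Depth was estimated from the commonest low value times length on GENCODE M21 transcripts longer than 500 bases, read as 1 read pair. Values at 0.5 of that step also recur, so read pairs are estimates and no interval was derived. Gene positions and overlaps are from GENCODE M21 (GRCm38), and promoter sequences from RefSeq. The alternatives were median-ratio scaling, names averaging 1 RPKM or more, added pseudocounts (0.1 or 1 RPKM), a 2-fold threshold and calls on any row of a name. Scripts ran in Python 3.11.15 with pandas 2.3.3 and numpy 2.4.6, and plots were drawn with matplotlib 3.10.9. The calls were tested on simulated data.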

Additional observations from a re-analysis of the deposited data

How the results depend on the processing

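The number of neuropeptide genes called in each direction of the 4 comparisons was the same with median-ratio scaling and added pseudocounts (0.1 or 1 RPKM). Names averaging 1 RPKM or more and calls on any row of a name could not change it. All 10 genes have that mean, Crh only through its G93A libraries, and each has 1 row. With a 2-fold threshold the number called changed for 2 of the 8 counts. In G93A vehicle against WT vehicle 0 genes were lower in place of 1 (Cck). In G93A + SD against WT + SD 1 was higher in place of 2 (Adcyap1 no longer called). Both follow from the threshold itself, and Crh was called in both genotype comparisons under each alternative. Its log2 fold change was smaller with a pseudocount of 1 RPKM, 1.09 in place of 2.20 under vehicle and 0.93 in place of 1.78 under SD. Counts for the receptors and over all names moved more, since they hold low levels: over names averaging 1 RPKM or more, those lower in G93A vehicle numbered 608 in place of 1915, and with a pseudocount of 1 RPKM 355. In the other directions and comparisons that pseudocount left 1552 of 3782, 1950 of 4341, 782 of 2340, 50 of 1341, 83 of 1597, 112 of 1626 and 85 of 1366. A paired analysis by replicate was not made, since each condition has 1 library, and pairing the genotypes within vehicle and within SD (2 pairs) was not tested. The spread between animals within a condition is unknown, and folds near 1.5 cannot be told from it. Among the 10 genes Crh rests on the fewest estimated read pairs.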
